A study of Mus musculus with 48 samples.

Results

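Gastrocnemius muscle of hCYP2B6-Tg mice was compared with that of Cyp2b-null mice in the absence of perfluorooctane sulfonate (PFOS), a persistent fluorinated surfactant. The libraries were those whose labels gave a dose of 0 mg/kg/day, which were 17 of the 48 in the series: 9 from hCYP2B6-Tg mice (4 females and 5 males) and 8 from Cyp2b-null mice (4 females and 4 males). Each library came from 1 mouse. All 17 mice received oral gavage at 0 mg/kg/day for 21 days. The other 31 mice received 1 or 10 mg/kg/day (16 and 15 libraries) and enter below only as separate animals in which the same genes were read. The name hCYP2B6-Tg stands for transgenic mice with human CYP2B6, a cytochrome P450 gene, and Cyp2b-null for mice from which genes of the mouse Cyp2b family were deleted. In the published lines the human gene was placed on the Cyp2b-null background, so that both genotypes lack the mouse genes and differ in the transgene, although the labels do not state this. Human CYP2B6 was not analysed here. The sources used here do not give age, strain background, the promoter of the transgene or the time of day at which muscle was collected.

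CYP2B enzymes are membrane-bound monooxygenases that oxidise drugs, steroids and polyunsaturated fatty acids, and they take electrons from the reductase encoded by Por. They are known chiefly from liver, where the nuclear receptors encoded by Nr1i3 and Nr1i2 induce them. Gastrocnemius is a calf muscle built mostly of fast glycolytic fibres.

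The 17 libraries carried the transcripts of fast muscle and very few of liver. Myh4, the fast myosin heavy chain of type IIB fibres, ran from 58570 to 81710 CPM (counts scaled to a common library size) in hCYP2B6-Tg libraries and from 51880 to 72470 CPM in Cyp2b-null libraries. The extraction text of the labels names liver, whereas the tissue field names gastrocnemius. Alb, the gene of serum albumin, had 0 to 9 counts in each hCYP2B6-Tg library and 0 to 224 in each Cyp2b-null library. The 224 counts were in Cyp2b-null male replicate 2, which also held 40 counts of Apoa1 and 5 of Ttr, while the next highest Alb count in that genotype was 10. Sex labels matched the X-silencing RNA Xist, with at most 3 counts in the 9 libraries labelled male and 2017 to 2386 in the 8 labelled female. Total counts ran from 11571142 to 15246168 in hCYP2B6-Tg libraries and from 13277029 to 15846615 in Cyp2b-null libraries. The mean total was 13486341 ± 1060139 counts in hCYP2B6-Tg and 14768537 ± 847433 in Cyp2b-null (SD, n = 9 and 8; exact two-sided permutation within sex, p = 0.017, or 0.068 after adjustment over 4 library measures). The other 3 measures were the number of genes detected, the mitochondrially encoded share and the share of the 20 highest genes, and their exact p-values were 0.255 to 0.699. The library numbers in the labels were interleaved between the genotypes in females, but 3 of the 4 Cyp2b-null males had a higher number than every other library. What the numbers stand for is not stated, and values within each sex are given beside the main results.

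Neither genotype had counts of the Cyp2b genes, and so the labels could not be checked through them. Cyp2b9, Cyp2b10, Cyp2b13 and Cyp2b23 had 0 counts in all 9 hCYP2B6-Tg and all 8 Cyp2b-null libraries, where 0 allows up to 3 counts per library, and Cyp2b19 had 1 count in 1 hCYP2B6-Tg library. Nr1i2, the gene of the pregnane X receptor, had 1 count in hCYP2B6-Tg and 0 in Cyp2b-null, and Nr1i3, the gene of the constitutive androstane receptor, had 1 count in each genotype. Por averaged 18.5 ± 3.71 CPM in hCYP2B6-Tg and 18.2 ± 2.17 CPM in Cyp2b-null (SD), with a log2 fold change of 0.03 ± 0.09 (SE; 95% interval -0.17 to 0.22). All 13 tested members of the list of P450 reductase and xenobiotic receptor genes had 95% intervals inside a 2-fold change in either direction. None of them reached an unadjusted p under 0.05, and their median log2 fold change was -0.03.

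No gene passed the test between the genotypes at 0 mg/kg/day. Of 13893 genes tested with edgeR's quasi-likelihood test with sex as a term, 0 had an adjusted p under 0.05, and the smallest adjusted p was 0.108. At an unadjusted p under 0.05 there were 551 genes (3.97%), 239 higher in hCYP2B6-Tg (1.72%) and 312 lower (2.25%). DESeq2 on the same genes passed 20, and limma voom with sample quality weights passed 1, Dbp. Within females 0 genes passed and 567 had an unadjusted p under 0.05 (4.08%), and within males the numbers were 0 and 576 (4.15%). DESeq2 passed 2 in each sex. The genotype difference in males minus that in females passed in 0 genes, with 545 at an unadjusted p under 0.05 (3.92%), and DESeq2 also passed 0. The same fit passed 1429 genes between males and females (10.3%, and 24.5% at an unadjusted p under 0.05).

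The fit bounded most differences within a 2-fold change. The median standard error was 0.12 on the log2 scale, and the median log2 fold change over all tested genes was 0.003. For 12562 of the 13893 genes (90.4%) the 95% interval lay inside a 2-fold change in either direction, and for 9935 (71.5%) inside a 1.5-fold change. Among 11298 genes with a log2 mean CPM of at least 1, these shares were 96.9% and 85.7%. Only 66 of the tested genes had a fitted difference over 2-fold. The root mean square distance between libraries of the same sex was 0.474 log2 CPM between genotypes and 0.473 within a genotype (exact one-sided permutation within sex, p = 0.404, chosen after the data were seen), against 0.551 between the sexes of a genotype.

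**Figure D1:**
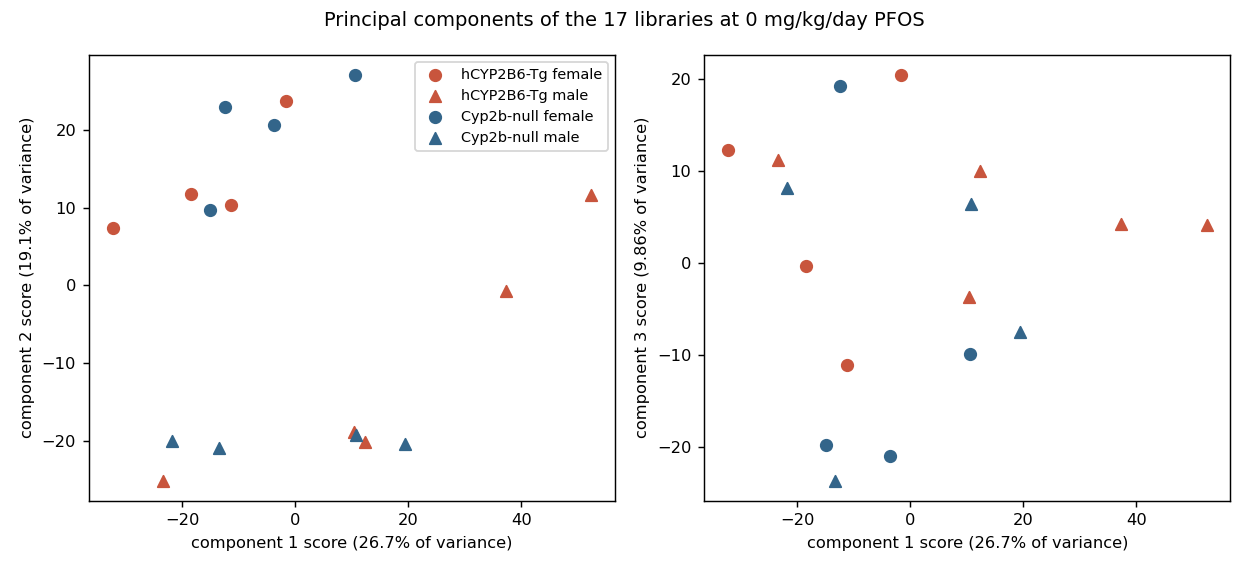
Scores of the 17 libraries on component 1 (26.7% of variance) against components 2 (19.1%) and 3 (9.86%), from log2 CPM of all tested genes; circles are females, triangles males, red hCYP2B6-Tg and blue Cyp2b-null. The genotypes overlap on each axis, and hCYP2B6-Tg males 4 and 2 have the highest component 1 scores, 52.4 and 37.3, against -32.3 to 19.4 in all other libraries.

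Slow fibre transcripts were low in the hCYP2B6-Tg males with the highest scores on component 1. Slow fibre genes such as Myh7, Myl2 and Tnnc1 were among those weighing most at its low end, so the scores partly hold these levels already. The mean log2 CPM of the slow fibre list was 2.66 in replicate 4 and 3.05 in replicate 2, against 4.76 to 6.06 in the other 3 hCYP2B6-Tg males and 5.15 to 7.96 in Cyp2b-null males. Over the 18 tested members the median log2 fold change was 0.37 in females and -2.23 in males, and -0.91 over both sexes. In the fit of both sexes 2 members were lower at an unadjusted p under 0.05 (11.1%, against 2.25% of all genes). They were Sln, the gene of the calcium pump inhibitor sarcolipin, and Casq2, a calcium-binding protein of the sarcoplasmic reticulum. This count of 2 was 0 without hCYP2B6-Tg male replicate 2, 3 or 4 or Cyp2b-null male replicate 3, 3 without hCYP2B6-Tg female replicate 2 or male replicate 5, 4 without Cyp2b-null female replicate 1, and 1 or 2 without each of the others. It was also 0 with voom, with the replicate block and with all 48 libraries in the fit. The list's median was -0.29 without Cyp2b-null male replicate 3 and -0.30 with voom. Myh7, the slow myosin heavy chain, had a lowest, median and highest level of 0, 90.0 and 754 CPM in hCYP2B6-Tg and 2.80, 174 and 1887 CPM in Cyp2b-null. Its groups overlapped between 2.80 and 754 CPM, and its log2 fold change was -1.18 ± 1.29 (unadjusted p = 0.370).

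Dbp led the table of genes and was the only tested gene whose hCYP2B6-Tg and Cyp2b-null libraries did not overlap (1 of 13893, 0.00720%). It encodes a D-box-binding transcription factor whose transcript is among the most strongly cycling outputs of the circadian clock, and it lies at chr7:45705088-45710203 (GRCm38, plus strand). Dbp had a lowest, median and highest level of 60.5, 75.7 and 107.4 CPM in hCYP2B6-Tg libraries, against 11.3, 31.1 and 46.6 CPM in Cyp2b-null libraries. All 9 hCYP2B6-Tg libraries were above the highest Cyp2b-null library. The log2 fold change was 1.35 ± 0.22 (adjusted p = 0.108), with 1.70 in females and 1.04 in males. Sphk2, a sphingosine kinase gene on the other strand at chr7:45709467-45718002, overlaps the end of Dbp, and the use of strand in counting is not given, so reads of the overlap cannot be assigned. Sphk2 went the other way, with 13.9 ± 1.56 CPM in hCYP2B6-Tg and 17.2 ± 1.34 CPM in Cyp2b-null and a log2 fold change of -0.30 ± 0.07 (adjusted p = 0.293).

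**Figure D2:**
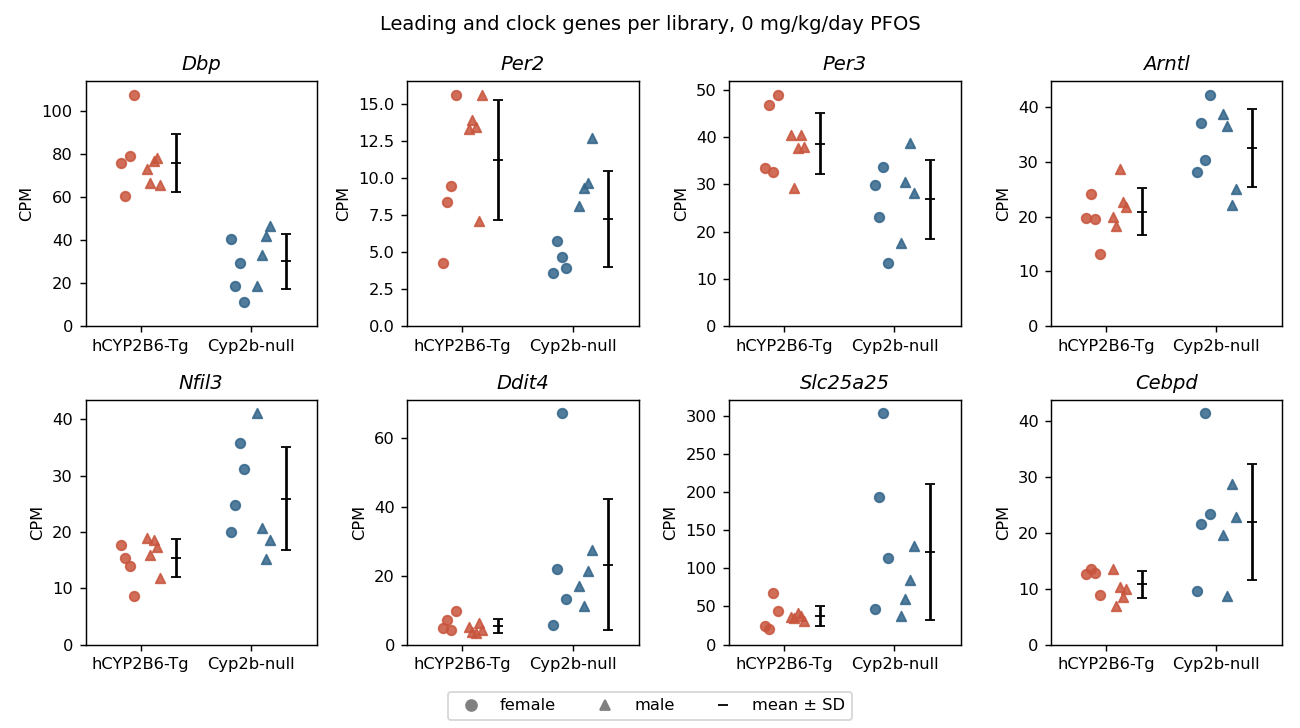
Level of 8 genes in CPM in each library at 0 mg/kg/day PFOS, hCYP2B6-Tg in red and Cyp2b-null in blue; circles are females and triangles males, and bars give mean ± SD over 9 and 8 libraries. The Dbp libraries of the genotypes do not overlap (60.5 CPM and above in hCYP2B6-Tg, 46.6 CPM and below in Cyp2b-null), while those of the other 7 genes do.

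The remaining genes with the smallest p-values were mostly lower in hCYP2B6-Tg muscle. The 24 named here, after their values were seen, have the smallest p-values among genes that are not predicted genes, have a log2 mean CPM of at least 1 and have the same sign in both sexes. Of these 22 were lower and 2 higher, with adjusted p-values of 0.108 to 0.463. Another 3 genes had p-values in this range but fell outside the rule, among them the predicted genes Gm26767 and Gm48630, described below. Dbp and Zfp386, a zinc finger gene (log2 fold change 0.24 ± 0.06), were the higher ones. Ddit4, which encodes an inhibitor of the growth kinase complex mTORC1 induced by stress and glucocorticoids, had a lowest, median and highest level of 3.45, 4.80 and 9.71 CPM in hCYP2B6-Tg and 5.70, 19.1 and 67.1 CPM in Cyp2b-null. In 6 of 9 hCYP2B6-Tg libraries it was below every Cyp2b-null library, and its log2 fold change was -2.07 ± 0.36 (adjusted p = 0.110). Slc25a25, a carrier of ATP-magnesium and phosphate across the inner mitochondrial membrane, had 20.2, 36.4 and 67.4 CPM in hCYP2B6-Tg and 38.1, 99.5 and 304 CPM in Cyp2b-null, again lowest, median and highest. Its groups overlapped between 38.1 and 67.4 CPM, and its log2 fold change was -1.57 ± 0.34 (adjusted p = 0.238).

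Gadd45g, a stress sensor of the GADD45 family, averaged 27.8 ± 14.8 CPM in hCYP2B6-Tg and 63.4 ± 27.6 CPM in Cyp2b-null. Cebpd, a transcription factor of the acute phase and of fat cell formation, averaged 10.8 ± 2.41 CPM in hCYP2B6-Tg and 21.97 ± 10.4 CPM in Cyp2b-null. The arrestin family genes Arrdc2 and Arrdc3 had log2 fold changes of -1.44 ± 0.32 and -0.96 ± 0.24, and Depp1, an autophagy regulator under FOXO control, -1.29 ± 0.30. The ranges of the genotypes overlapped in each of these.

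Pnpla3, a lipase of lipid droplets, had a log2 fold change of -0.95 ± 0.20, and Ppp1r3c, a subunit that brings protein phosphatase 1 to glycogen, -0.87 ± 0.21. S1pr1, a receptor for sphingosine 1-phosphate that is abundant in endothelium, was at 23.95 ± 4.65 CPM in hCYP2B6-Tg and 38.97 ± 13.5 CPM in Cyp2b-null. Nfkbia, the inhibitor of NF-kB, had -0.49 ± 0.12, and Sdc4, a cell-surface proteoglycan, -0.44 ± 0.10. Kcna5, a voltage-gated potassium channel, had -0.70 ± 0.17, and Tead4, a transcription factor of the Hippo pathway, -0.59 ± 0.14. Lrrc30, a leucine-rich repeat gene, was at 74.7 ± 27.0 CPM in hCYP2B6-Tg and 135.5 ± 39.8 CPM in Cyp2b-null (log2 fold change -0.89 ± 0.16), and Tcim, a regulator of Wnt signalling, at 5.86 ± 1.95 CPM in hCYP2B6-Tg and 11.1 ± 3.19 CPM in Cyp2b-null. Rasl11b, Ypel2 and Lzts2 had -1.11 ± 0.23, -0.56 ± 0.12 and -0.38 ± 0.10. Among predicted genes, Gm26767, Gm48630 and Gm38150 had the smallest p-values, with log2 fold changes of -0.79, -0.94 and -0.89 (adjusted p 0.123, 0.310 and 0.471).

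**Figure D3:**
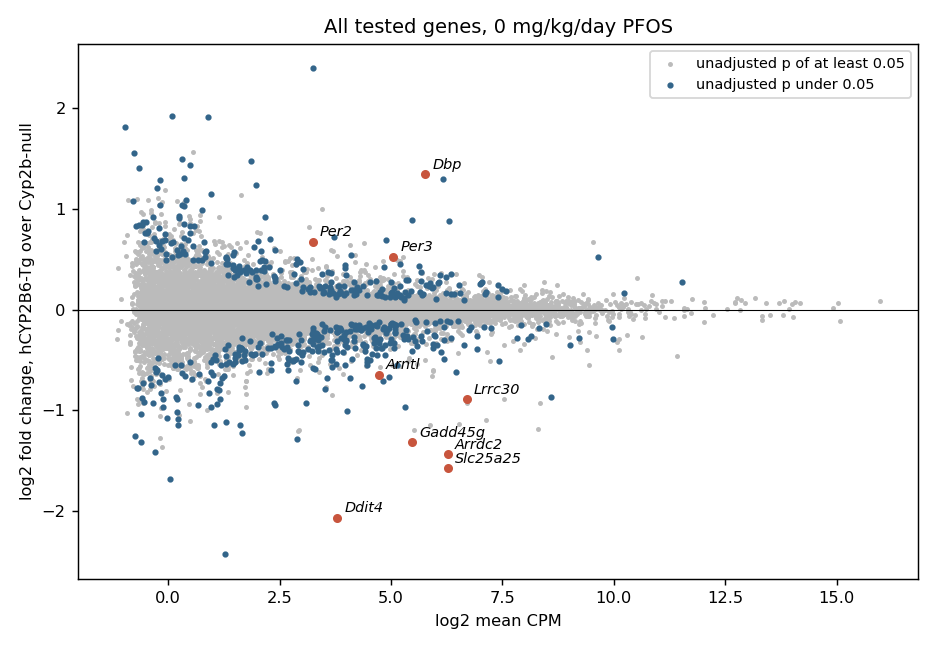
Log2 fold change of hCYP2B6-Tg over Cyp2b-null against the log2 mean CPM for the 13893 tested genes at 0 mg/kg/day PFOS; grey points have an unadjusted p of at least 0.05 and blue points one under 0.05 (551 genes), and 9 named genes are in red. None passed after adjustment, and among the 9 named genes Dbp (1.35) is the highest and Ddit4 (-2.07) the lowest.

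The mammalian clock is a transcriptional loop. The activators CLOCK and BMAL1 (encoded by Clock and Arntl) bind E-boxes and induce the repressors encoded by the Per and Cry genes, nuclear receptors such as the REV-ERBs act on Arntl through their own response element, and DBP and its antagonist NFIL3 compete for D-boxes. Muscle has its own clock, and the levels of these transcripts depend on the time of day. The promoters below show the 3 elements in members of the list, with the element in capitals. They are RefSeq windows on GRCm38.p6, 250 bases before to 50 after a start site, and the window of Ciart (chr3:95882179-95882478, minus strand) holds CACGTG at -116, -58 and -44 from the start. That of Per3 (chr4:151044616-151044915, minus strand) holds TTANGTAA at -205 and -158, and a window of Arntl (chr7:113207261-113207560, plus strand) holds AGGTCA at 31.
Ciart: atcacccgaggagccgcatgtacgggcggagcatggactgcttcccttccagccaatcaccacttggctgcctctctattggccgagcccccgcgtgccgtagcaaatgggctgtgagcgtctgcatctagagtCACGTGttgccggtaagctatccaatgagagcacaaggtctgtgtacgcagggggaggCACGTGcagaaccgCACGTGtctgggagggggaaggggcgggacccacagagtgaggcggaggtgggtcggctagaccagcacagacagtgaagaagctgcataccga
Per3: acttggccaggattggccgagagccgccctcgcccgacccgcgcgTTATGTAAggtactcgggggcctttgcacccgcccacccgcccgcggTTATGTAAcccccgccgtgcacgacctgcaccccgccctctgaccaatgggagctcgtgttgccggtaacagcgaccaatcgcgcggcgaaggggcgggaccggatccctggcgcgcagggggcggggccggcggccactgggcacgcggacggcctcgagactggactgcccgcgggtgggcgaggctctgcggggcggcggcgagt
Arntl: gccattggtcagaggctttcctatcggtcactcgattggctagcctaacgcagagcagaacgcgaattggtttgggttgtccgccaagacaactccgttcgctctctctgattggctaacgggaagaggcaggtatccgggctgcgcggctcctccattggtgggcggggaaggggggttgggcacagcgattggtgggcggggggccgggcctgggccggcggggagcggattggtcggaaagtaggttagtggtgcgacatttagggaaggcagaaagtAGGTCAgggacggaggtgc
Searched on both strands, CACGTG was present in 7.15% of 32851 windows, TTANGTAA in 2.32% and AGGTCA in 16.3%, and the letters of one do not contain another. Of the 21 windows of 16 clock genes, 6 held CACGTG, 1 held TTANGTAA and 5 held AGGTCA, and the window of Dbp held none of them.

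Many clock genes had an unadjusted p under 0.05 between the genotypes, although none passed after adjustment. Of the 19 members, all tested, 13 had an unadjusted p under 0.05 (68.4%, against 3.97% of all genes). Higher in hCYP2B6-Tg were 9 and lower 4, and 17 of the 19 had the same sign in both sexes, against 46.5% of all genes. The list was known from earlier results of these data when it was chosen, and its median log2 fold change was 0.18, against 0.003 over all tested genes. In a fit of all 48 libraries with a coefficient for each group the count at 0 mg/kg/day was 8 of 19.

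Of the activators, Arntl was at 13.1, 19.96 and 28.7 CPM in hCYP2B6-Tg and 22.1, 33.4 and 42.2 CPM in Cyp2b-null, as lowest, median and highest. In 6 of 9 hCYP2B6-Tg libraries it was below every Cyp2b-null library, and the log2 fold change was -0.65 ± 0.14 (adjusted p = 0.293). Clock had -0.26 ± 0.12, and Npas2, which can stand in for Clock, had -0.51 ± 0.28 with an unadjusted p of 0.080.

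Among the repressors, Per2 was at 4.23, 13.3 and 15.6 CPM in hCYP2B6-Tg and 3.56, 6.94 and 12.7 CPM in Cyp2b-null. In 5 hCYP2B6-Tg libraries it was above every Cyp2b-null library, with a log2 fold change of 0.68 ± 0.22 (1.08 in females and 0.35 in males). Per3 was at 29.3, 38.01 and 49.0 CPM in hCYP2B6-Tg and 13.3, 29.0 and 38.7 CPM in Cyp2b-null, with 0.53 ± 0.17. Here 4 hCYP2B6-Tg libraries were above all Cyp2b-null libraries and 4 Cyp2b-null libraries below all hCYP2B6-Tg libraries. Cry2 had 0.29 ± 0.09 and Cry1 -0.20 ± 0.09, and Per1, which also responds to glucocorticoids, had -0.24 ± 0.26. Ciart, a repressor of CLOCK and BMAL1, averaged 5.598 ± 2.06 CPM in hCYP2B6-Tg and 2.98 ± 1.61 CPM in Cyp2b-null (0.92 ± 0.29).

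Of the receptors and the output factors, Nr1d1 and Nr1d2 (encoding REV-ERB alpha and beta) had log2 fold changes of 0.24 ± 0.12 and 0.18 ± 0.07, and Rora, the gene of a receptor that acts against them, 0.26 ± 0.11. Nfil3 was at 15.4 ± 3.38 CPM in hCYP2B6-Tg and 25.9 ± 9.17 CPM in Cyp2b-null, opposite in direction to Dbp, with -0.76 ± 0.19 (adjusted p = 0.463). Tef and Hlf, relatives of Dbp, had 0.16 ± 0.08 and 0.17 ± 0.17. Bhlhe40 and Bhlhe41, which compete for E-boxes, had 0.27 ± 0.09 and 0.30 ± 0.15.

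The mice given PFOS allowed the same genes to be read between the genotypes in animals that share no library with the 17, although these animals were also exposed. At 1 mg/kg/day 0 genes passed (edgeR, also with all 48 libraries in the fit; smallest adjusted p 0.051) and 1210 of 13925 had an unadjusted p under 0.05 (8.69%). Of the clock list 13 of 19 did so, 10 higher (against 4.56% of all genes) and 3 lower (4.13%) in hCYP2B6-Tg, and 16 of 19 had the same sign as at 0 mg/kg/day, against 58.5% of all genes tested at both doses. In the same comparison 12 of 17 adipocyte markers were higher and 0 lower at an unadjusted p under 0.05, with a median log2 fold change of 3.10, against 0.07 at 0 mg/kg/day, and the part of fat content in the values at 1 mg/kg/day was not tested. Of the clock genes, Arntl had -0.65 ± 0.15, Per2 1.28 ± 0.28, Per3 0.62 ± 0.14, Cry2 0.48 ± 0.11 and Dbp 0.72 ± 0.26. Nfil3, Bhlhe40 and Nr1d1 were near 0 there, at -0.05 ± 0.26, 0.045 ± 0.161 and -0.06 ± 0.10. Per1 turned, with 0.64 ± 0.28 there against -0.24 ± 0.26 at 0 mg/kg/day, and is 1 of the 10 higher ones. Of the 13 clock genes with an unadjusted p under 0.05 at 0 mg/kg/day, 9 also had one at 1 mg/kg/day with the same sign. Among all genes with such a p at 0 mg/kg/day, 76 of 537 did so. At 10 mg/kg/day 0 genes passed (edgeR; 16 with all 48 libraries in the fit) and 1059 of 14972 had an unadjusted p under 0.05 (7.07%), with 2 of 19 clock genes, Ciart (0.57 ± 0.24) and Clock (-0.34 ± 0.15). The sign was that of 0 mg/kg/day in 15 of 19 clock genes and in 45.8% of all genes, and Dbp had 0.02 ± 0.54. Here 13 of 18 slow fibre genes were higher and 1 lower at an unadjusted p under 0.05 (against 7.07% of all genes in either direction). Their median was 1.31, and their part in the values at 10 mg/kg/day was likewise not tested. Whether the genotype difference depended on dose was not tested.

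**Figure D4:**
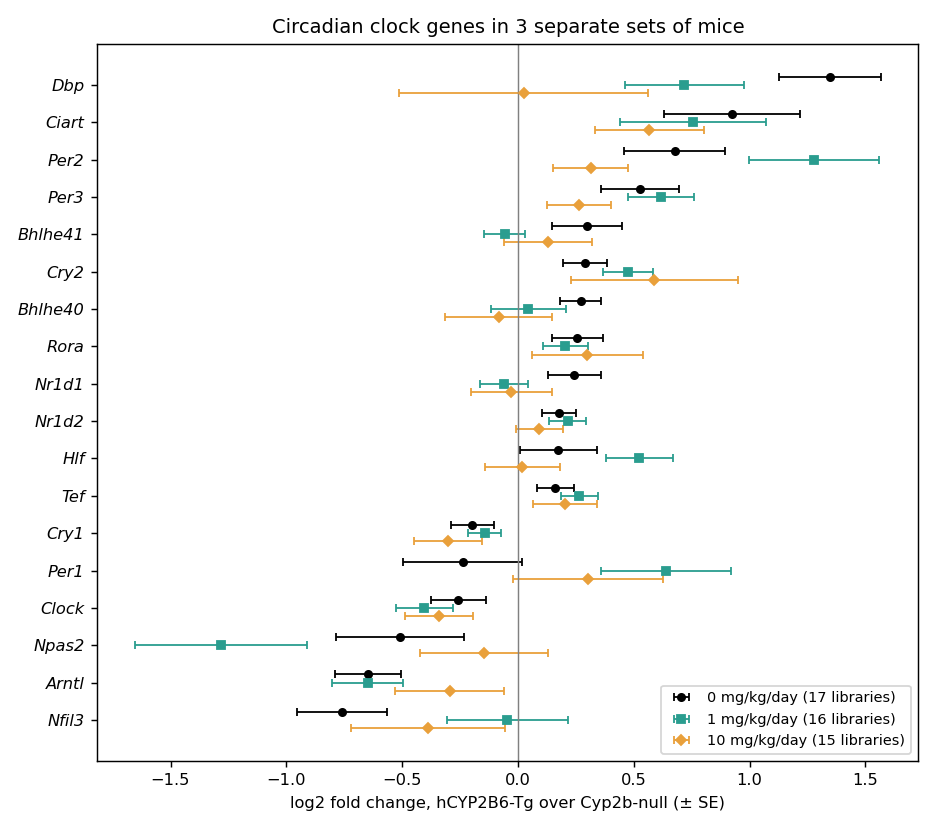
Log2 fold change (± SE) of hCYP2B6-Tg over Cyp2b-null for 18 of the 19 clock genes in 3 separate sets of mice, at 0 (17 libraries, black circles), 1 (16, green squares) and 10 mg/kg/day PFOS (15, orange diamonds). In order of dose, Arntl lies at -0.65, -0.65 and -0.295, Per3 at 0.53, 0.62 and 0.26, and Dbp at 1.35, 0.72 and 0.02.

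A fit of all 48 libraries with sex and dose as strata, added after the data were seen, gave 10 genes that passed for genotype (0.0642% of 15583), while 1269 had an unadjusted p under 0.05 (8.14%). Averaged over doses, Per2 and Per3 rose in hCYP2B6-Tg muscle by log2 fold changes of 0.75 ± 0.15 and 0.47 ± 0.10 (adjusted p = 0.029 each, edgeR), and Arntl fell by 0.54 ± 0.11 (adjusted p = 0.029). Ankrd12, an ankyrin repeat cofactor gene, also rose (0.22 ± 0.04). Slc25a36, a mitochondrial carrier of pyrimidine nucleotides, fell by 0.31 ± 0.06, Miga2, a mitochondrial fusion factor, by 0.47 ± 0.10, and Ypel2 by 0.43 ± 0.08. Plekhf1, Zfp395 and Wsb1 fell by 0.34, 0.26 and 0.36. In the 31 libraries at 1 and 10 mg/kg/day alone, 1 gene passed (0.00651%), Klhl30 (-0.43 ± 0.08, adjusted p = 0.036), which at 0 mg/kg/day had 0.01. Of the 24 leading genes at 0 mg/kg/day, 17 (70.8%) had the same sign at 1 mg/kg/day and 14 (58.3%) at 10 mg/kg/day. These shares were 58.5% and 45.8% over all tested genes. Among genes with an unadjusted p under 0.05 at 0 mg/kg/day they were 68.5% and 47.5%. An unadjusted p under 0.05 was reached by 7 of the 24 at 1 mg/kg/day and by 3 at 10 mg/kg/day, all with the sign of 0 mg/kg/day. Over all tested genes, 862 of 13706 and 419 of 13777 reached it with the same sign. Among the 7 were Gadd45g (-0.60 ± 0.27) and Ypel2 (-0.41 ± 0.15), and among the 3 was Slc25a25 (-0.60 ± 0.24). Ddit4 had 0.10 ± 0.34 and 0.44 ± 1.05 at the 2 doses, and Lrrc30 0.10 ± 0.20 and 0.14 ± 0.38.

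Glucocorticoid-inducible genes and immediate early genes were the next in share among lists with at least 10 tested members, and their members with small p-values were all lower in hCYP2B6-Tg. Of 17 glucocorticoid targets tested, 7 were lower at an unadjusted p under 0.05 (against 2.25% of all genes) and 0 higher, and the list's median log2 fold change was -0.31. Besides Ddit4 these were Tsc22d3, the gene of the glucocorticoid-induced leucine zipper (-0.51 ± 0.14), the metallothionein gene Mt1 (-0.60 ± 0.23), the cell cycle inhibitor gene Cdkn1a (-0.55 ± 0.21), the sulfotransferase gene Sult1a1 (-0.30 ± 0.14), Errfi1 and Klf15. Pdk4, which encodes a kinase that holds back pyruvate oxidation and is also a target, overlapped widely at 957 ± 446 CPM in hCYP2B6-Tg and 1194 ± 571 CPM in Cyp2b-null (-0.32 ± 0.36). In the mice at 1 mg/kg/day 5 of the list were higher (against 4.56% of all genes) and 1 lower (4.13%) at an unadjusted p under 0.05, and the median was 0.20.

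Of 24 immediate early genes, 8 were lower (against 2.25% of all genes) and 0 higher (1.72%), with a median of -0.25. Zfp36, whose protein destabilises inflammatory messenger RNAs, was at 8.42 ± 2.80 CPM in hCYP2B6-Tg and 14.6 ± 5.65 CPM in Cyp2b-null (-0.78 ± 0.21). Atf3, a stress-induced transcription factor, had -1.22 ± 0.36, Klf2, a factor of endothelium under flow, -0.68 ± 0.23, and Fosl2, an AP-1 subunit, -0.36 ± 0.13. Jun, Btg2, Nr4a2 and Cyr61 were the others. At 1 mg/kg/day 1 of the list was higher (4.56% of all genes) and 3 were lower (4.13%), with a median of -0.08.

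Of 26 atrophy and FOXO target genes, 6 were lower (against 2.25% of all genes) and 1, Cited2, was higher (1.72%), and the median was -0.03. Ddit4, Tsc22d3, Mt1 and Klf15 are shared with the glucocorticoid list, so the lists are not separate counts, and the others were Depp1 and the insulin receptor substrate gene Irs2 (-0.23 ± 0.08). The muscle ubiquitin ligase genes Fbxo32 and Trim63 were not among them. Fbxo32 was at 475 ± 143.7 CPM in hCYP2B6-Tg and 553 ± 75.3 CPM in Cyp2b-null (-0.27 ± 0.13, unadjusted p = 0.053), and Trim63 at 279 ± 58.3 CPM in hCYP2B6-Tg and 307 ± 49.0 CPM in Cyp2b-null (-0.14 ± 0.12).

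**Figure D5:**
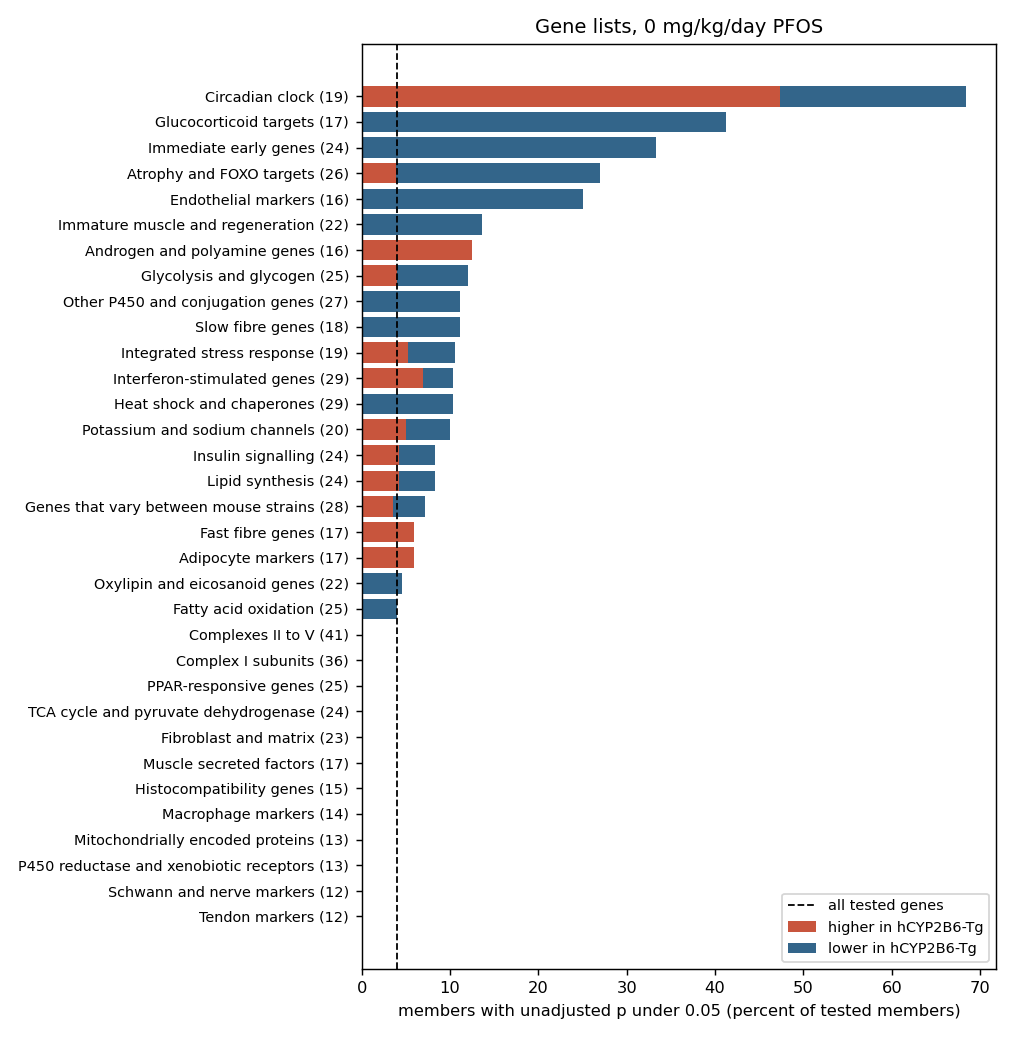
Share of tested members with an unadjusted p under 0.05 in each gene list with at least 10 tested members, higher in hCYP2B6-Tg in red and lower in blue, with the number tested in brackets; the dashed line is the 3.97% of all tested genes. The clock list stands at 68.4%, glucocorticoid targets at 41.2% and immediate early genes at 33.3%, and 12 lists have no such member.

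Markers of other cell types were read beside these lists. Of 16 endothelial markers 4 were lower at an unadjusted p under 0.05 (against 2.25% of all genes), with a list median of -0.28, or -0.43 in females and -0.07 in males. They were Emcn (-0.31 ± 0.12), Flt1 (-0.38 ± 0.17), Cdh5 (-0.30 ± 0.13) and Vwf (-0.45 ± 0.20, and -0.29 without Cyp2b-null male replicate 1), and the summed list ran from 434 to 712 CPM in hCYP2B6-Tg and from 413 to 905 CPM in Cyp2b-null. Fewer cells of a type and less RNA per cell cannot be told apart in these bulk libraries, and the part of endothelial content in the values of Klf2 and S1pr1 was not tested. Lymphoid markers were high in different libraries. In hCYP2B6-Tg female replicate 4 Glycam1, a gene of lymph node venules, had 312 counts against 0 in the other 16 libraries. In that library Coro1a, an actin regulator of leukocytes, was at 31.5 CPM, against at most 3.46 in the other 3 hCYP2B6-Tg females. Its log2 fold change was 1.48 ± 0.66, and 0.46 without that library, while Ighm, the immunoglobulin heavy constant mu gene, had 1.30 with it and 1.29 without it. Ighm was highest in hCYP2B6-Tg male replicates 2 and 4, at 326.8 and 192.7 CPM, against at most 77.4 CPM in any other library, and its log2 fold change was 0.99 without replicate 2. Of the 19 lymphoid markers 3 were tested. Adipocyte markers had 1 of 17 at an unadjusted p under 0.05 (5.88%, against 3.97% of all genes). Their median was 0.07, with 0.82 in females and -0.48 in males. Macrophage, fibroblast, tendon, nerve, liver and red cell markers had no member at an unadjusted p under 0.05, but many of their intervals were wide. Inside a 2-fold change lay 4 of 14 macrophage, 19 of 23 fibroblast, 2 of 12 tendon and 2 of 12 nerve intervals, and only 2 liver markers were tested. The macrophage median was 0.86 in females and -0.10 in males. For fibroblast markers these were 0.55 and -0.04, and for nerve markers 0.12 and -0.77. Equal content of these cells was thus not shown.

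Genes of mitochondrial energy metabolism, the subject named in the series title, had small fitted differences with narrow intervals. Of 36 complex I subunits, 41 subunits of complexes II to V and 13 mitochondrially encoded proteins, 0 had an unadjusted p under 0.05, and so did 0 of 24 TCA cycle and pyruvate dehydrogenase genes. All intervals of the first 3 lists, and 23 of the 24, lay inside a 2-fold change in either direction. Their median log2 fold changes were -0.03, -0.05, -0.10 and -0.05. Within sexes the medians were -0.16, -0.16, -0.19 and -0.11 in females and 0.10, 0.07, 0.01 and 0.02 in males. In fatty acid oxidation 1 of 25 had an unadjusted p under 0.05, which is at the share of all genes (4%, against 3.97%). That gene was Cpt1b, which encodes the muscle enzyme of fatty acid entry into mitochondria. It was lower, at 3.03 ± 0.81 CPM in hCYP2B6-Tg and 4.19 ± 1.07 CPM in Cyp2b-null (-0.45 ± 0.19, unadjusted p = 0.025). Of 25 PPAR-responsive genes 0 had an unadjusted p under 0.05, with a median of -0.13. Their intervals were wider, with 19 of 25 inside a 2-fold change in either direction. Among them Ucp3, a mitochondrial uncoupling protein gene, was at 169 ± 63.6 CPM in hCYP2B6-Tg and 173 ± 48.1 CPM in Cyp2b-null (-0.02 ± 0.24), Angptl4, an inhibitor of lipoprotein lipase, had -0.48 ± 0.34, and the coactivator gene Ppargc1a -0.15 ± 0.11. Nnt, the mitochondrial transhydrogenase gene that some C57BL/6 substrains lack in part, had 0 to 16 counts in hCYP2B6-Tg and 1 to 19 in Cyp2b-null and was not tested.

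In glycolysis and glycogen metabolism 1 of 25 was higher and 2 were lower (12%, against 3.97% of all genes). Pfkfb3, a regulator of phosphofructokinase, was at 956 ± 355 CPM in hCYP2B6-Tg and 624 ± 180 CPM in Cyp2b-null, with -0.04 in females and 1.04 in males. The gene named Pgm1 had -0.80 ± 0.25, and the glucose transporter gene Slc2a1 -0.48 ± 0.22. Whether the locus under the name Pgm1 serves glycolysis or glycogen metabolism was not tested, and the 2 lower genes include it. Fasn, the fatty acid synthase gene, had 7.65, 14.9 and 107.8 CPM in hCYP2B6-Tg and 7.04, 13.1 and 34.2 CPM in Cyp2b-null, and the 107.8 CPM were in hCYP2B6-Tg female replicate 4. Its log2 fold change was 0.46 ± 0.51, and -0.29 without that library. Srebf1, a transcription factor of lipid synthesis, had 0.29 ± 0.12, and Elovl5, an elongase of polyunsaturated fatty acids, -0.30 ± 0.12. Elovl5 was the 1 of 22 oxylipin and eicosanoid genes with an unadjusted p under 0.05, which is near the share of all genes (4.55%, against 3.97%). Of 27 other P450 and conjugation genes 3 were lower (11.1%), Cyp1a1 (-0.96 ± 0.43), Cyp2j6 (-0.36 ± 0.17) and Sult1a1.

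In the stress, interferon and immature muscle lists 10.3% to 13.6% of tested members had an unadjusted p under 0.05, against 3.97% of all genes. Chac1, a glutathione-degrading enzyme induced by ATF4, was at 101.8 ± 36.8 CPM in hCYP2B6-Tg and 52.9 ± 18.5 CPM in Cyp2b-null (0.88 ± 0.23, adjusted p = 0.471), and 1.11 ± 0.31 at 1 mg/kg/day. It was the only higher one of 19 integrated stress response genes at 0 mg/kg/day, and Atf3 the only lower one. Atf3 had 0.65 ± 0.62 at 1 mg/kg/day. Of 29 chaperones 3 were lower, Manf, Hspa5 and Dnajb1 (-0.27, -0.17 and -0.34, the last -0.22 without Cyp2b-null female replicate 2). At 1 mg/kg/day these 3 had the other sign, at 0.10 ± 0.12, 0.07 ± 0.09 and 0.57 ± 0.24. Of 29 interferon-stimulated genes 2 were higher, Zbp1 (1.56 ± 0.43, at most 1.30 CPM in any library) and Ifi27 (0.16 ± 0.07), and Rsad2 was lower (-0.60 ± 0.22). Igf1, a growth factor gene, had 0.72 ± 0.31, and 0.37 without hCYP2B6-Tg male replicate 2, which stood at 54.29 CPM against at most 24.15 in any other library. Amd2, a retrocopy of a polyamine enzyme gene whose reads can be shared with Amd1, had 0.69 ± 0.26. Of 22 genes of immature muscle 3 were lower, Ncam1 (-0.38 ± 0.14), Myod1 (-0.42 ± 0.17) and Cdkn1a. Among contractile genes Mylk2, the myosin light chain kinase of skeletal muscle, had 0.17 ± 0.07, and Kcnj2, an inward rectifier potassium channel gene, 0.28 ± 0.10. Myh2, Myh1 and Myh4, the fast myosins, had -0.27 ± 0.49, -0.46 ± 0.33 and 0.09 ± 0.09, and Actc1, the cardiac actin gene, 0.67 ± 0.40.

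The chromosomal surroundings of the Cyp2b genes were at the background. Within 5 Mb on each side of the Cyp2b genes (chr7:25897620-26772630) 6 of the tested genes had an unadjusted p under 0.05 (3.68% of those tested, against 3.97% of all genes), 5 higher and 1 lower in hCYP2B6-Tg. Zfp36 was the lower one, and Gmfg, Map4k1, Shkbp1, Haus5 and Zfp59 were the higher ones. Gmfg and Map4k1 had log2 fold changes of 1.29 ± 0.40 and 1.31 ± 0.44 at low levels. Gmfg was at 1.03 ± 0.67 CPM in hCYP2B6-Tg and 0.42 ± 0.22 CPM in Cyp2b-null. Map4k1 was at 1.55 ± 1.61 CPM in hCYP2B6-Tg and 0.68 ± 0.39 CPM in Cyp2b-null. The part of leukocyte content in these 2 values was not tested. Of 28 tested genes known to vary between mouse strains 2 had an unadjusted p under 0.05 (7.14%, against 3.97% of all genes), Nxpe4 (-0.30 ± 0.13) and Adam33 (0.58 ± 0.25).

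The count of genes that passed at 0 mg/kg/day depended on single libraries. Without Cyp2b-null female replicate 1, 8 genes passed: Ddit4, Tcim, Dbp, Tob2, Lrrc30, Gm26767, Gadd45g and Arrdc2. Without hCYP2B6-Tg male replicate 1, 1 gene passed, Lrrc30, and without each of the other 15 libraries in turn 0 passed.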

How the data were processed

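The deposited file is a table of raw counts for 54532 genes. The submitters' processing notes name HISAT2 and GRCm39 and give neither a version nor a role, and the sources used here do not give the counting program, its annotation or its use of strand. The table's coordinates are those of GRCm38: of 54495 gene identifiers shared with GENCODE vM21, 53585 (98.3%) have the same position there. All columns were matched to samples by name, 1 library per mouse, and no pair within a group was a copy (lowest chi-square per degree of freedom 7.96 over 28 pairs).

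Genes were filtered with filterByExpr (13893 left), scaled with TMM and tested with edgeR 4.0.16 in R 4.3.3 (quasi-likelihood test, two-sided, terms for sex and genotype, 14 residual degrees of freedom and a coefficient of variation of 20.2%), with Benjamini-Hochberg adjustment over all tested genes and a threshold of 0.05. Log2 fold changes are hCYP2B6-Tg over Cyp2b-null ± SE, and CPM are mean ± SD on scaled library sizes. Within-sex values and the difference between sexes came from a fit with 1 coefficient per group. A count of 0 allows up to 3 counts, for counting error only. With 1 library from each of 4 or 5 mice in a group, p-values reflect the variation between those mice. The scripts were tested on simulated data.

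Genes were to be named from those that passed (12 rises and 12 falls, 4 per list, 5 and 5 for the sexes, genes near Cyp2b), with a fixed set read in any case. None passed, so the 24 genes of smallest p (no predicted genes, log2 mean CPM of at least 1, same sign in both sexes), the clock list, the 4 members of smallest unadjusted p under 0.05 in each list and 3 predicted genes were named after their values were seen. The comparison and the 38 gene lists were chosen with earlier results of these data known. The values of 2 genes, 1 of them a clock gene, are not reported here. Of 12 neutrophil markers none passed the filter on low counts. Alternatives were DESeq2 1.42.0, its size factors, unscaled totals, totals without mitochondrially encoded genes, no filter, a CPM of at least 1 in 8 libraries, all 48 libraries, no sex term, the replicate number as a block and each library left out. limma 3.58.1 voom with sample quality weights, the fit averaged over doses and the distance between libraries were added after the data were seen.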

Additional observations from a re-analysis of the deposited data

Results flagged for a closer look

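Levels of the named genes and 4 library measures were searched for single libraries that stood apart from the others of their group of 4 or 5, and 27 were found in 411 groups searched (6.57%), where chance gives about 1 in 20. No genotype difference passed the test of a difference between the sexes.

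hCYP2B6-Tg female replicate 4 stood highest for 5 genes: Glycam1 (21.34 CPM, 0 in the other 3 females), Coro1a (31.52, others at most 3.46), Fasn (107.8, others at most 15.2), Slc2a1 (8.138) and Cyp1a1 (2.325). hCYP2B6-Tg female replicate 2 was highest for Gm26767 (1.947). Among hCYP2B6-Tg males, replicate 4 was lowest for Per2 (7.07, others at least 13.3) and highest for Gadd45g (61.91, others at most 34.3), and replicate 2 was lowest for Per3 (29.29). Replicate 1 was highest for Ppp1r3c (515.7), Ddx3y (128.2) and Xist (0.1331), and replicate 5 for Klf2 (19.15) and Elovl5 (10.73).

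Cyp2b-null female replicate 4 was highest for Myh7 (611.2 CPM, others at most 65.3), Myh2 (3095, others at most 921.9) and Por (21.24) and lowest for Nr1d2 (106.3). Cyp2b-null female replicate 1 was highest for Fasn (34.18), Slc2a1 (10.94) and Coro1a (1.813). Among Cyp2b-null males, replicate 1 was highest for Nr1d1 (196.8, others at most 132.1), Pnpla3 (8.021), Vwf (46.18) and Xist (0.1823), and replicate 3 was lowest for Lrrc30 (113.7, others at least 172.1) and for the share of counts in the 20 highest genes (33.49%, others at least 36.3%). The causes were not tested.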

How the results depend on the processing

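The count of genes that passed between the genotypes was 0 in the reported fit and 0 with DESeq2 size factors, unscaled totals, totals without mitochondrially encoded genes, the stricter filter, all 48 libraries in the fit, no sex term and the replicate block. It was 13 with no filter, 20 with DESeq2, 1 with voom and 10 averaged over the 3 doses, and of the 20 genes passed by DESeq2 17 were among the 24 leading genes. Within sexes it was 3 (females) and 4 (males) with no filter and 2 in each with DESeq2, against 0. With 1 library left out the count was 0 to 8 over both sexes, 0 to 1 in females and 0 in males and for the difference between sexes. At 10 mg/kg/day the fit of all 48 libraries passed 16 genes, against 0. The causes were not tested. The number of genes with unadjusted p under 0.05, both sexes, was 551 in the reported fit, 1501 with no filter (29648 tested) and 1269 averaged over doses. The clock list's count of 13 was 8 in the fit of all 48 libraries and 9 to 14 with 1 library left out, and its median was 0.15 to 0.22 in every setting.

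Directions turned for genes near 0: Por was -0.02 with the block and -0.04 to 0.06 with a library left out, Ucp3 0.06 with voom and -0.13 to 0.13, Fasn -0.29 to 0.67, and Myh2 0.04 with voom and -0.43 to 0.1. Per1 was 0.08 with voom, and Xist -0.24 with all 48 libraries and -0.03 without the sex term. The difference in genes detected was -22.99 to 210.1.

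Same-numbered libraries of the genotypes shared only a number: their correlations were -0.184 to 0.358, and only 2 of 8 libraries correlated best with their own number. The replicate block passed 0 genes and left 12 clock genes at an unadjusted p under 0.05.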
